A study of Homo sapiens with 6 samples.

Results

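Cells take up, exchange and release amino acids through membrane carriers of several solute carrier (SLC) families. The genes described here are the protein-coding members of SLC1, SLC6, SLC7, SLC36, SLC38 and SLC43, chosen by symbol (SLC1A, SLC6A, SLC7A, SLC36A, SLC38A or SLC43A followed by a digit), with the cystine carrier gene SLC7A11 left out. The rule found 44 of the 25071 genes in the table. One of them, SLC7A6OS, matches by name only, since it is the gene on the opposite strand of SLC7A6 and encodes no carrier. It was kept apart, which left 43 transporter genes. GENCODE 29 annotates 56 such transporters, and the other 13 were not listed in the table.

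RNA was sequenced from PLC/PRF/5, a human hepatoma cell line, 48 hours after transfection. In 3 libraries the cells had received a plasmid that overexpresses ARD1 (ARD1 libraries). The 3 other libraries came from cells given a control vector (control libraries). ARD1, whose gene is NAA10, is the catalytic subunit of the major N-terminal acetyltransferase that acts on nascent proteins. All 6 libraries are of 1 cell line, ribosomal RNA was depleted, and a directional kit was used. Whether the 3 libraries of each kind were grown as separate cultures is not stated, and p-values therefore measure only how far these libraries spread.

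The families divide the work of moving amino acids. SLC7 proteins are mostly exchangers, and several of them (the light chains) reach the plasma membrane only when linked to the heavy chain SLC3A2. SLC6, most SLC38 and the glutamate-carrying SLC1 proteins couple uptake to the sodium gradient and can concentrate their substrates. They supply the amino acids that exchangers then trade. SLC1A4 and SLC1A5 are sodium-coupled too, but they exchange neutral amino acids. SLC36 and some SLC38 proteins sit on lysosomes, and SLC43 proteins carry large neutral substrates without ion coupling. Hepatoma cells are known for high levels of glutamine and leucine carriers compared with hepatocytes. During amino acid shortage the kinase GCN2 raises translation of the transcription factor ATF4, which switches on several carrier genes.

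The libraries held 21857327 to 25011357 counts, and 3 counts correspond to 0.112 to 0.143 CPM, the unit of all library values here, in which counts are scaled to a common library size by TMM. NAA10 stood at 355, 400.2 and 294 CPM in ARD1 libraries, against 35.6, 32.2 and 36.2 CPM in control libraries, 10.1-fold higher, which fits the labels. No pair of libraries in a group agreed within sampling noise; chi-square divided by its degrees of freedom was 2.51 to 4.35 between ARD1 libraries and 2.97 to 20.2 between control libraries. Control replicate 1 stood apart from the other control libraries (17.4 and 20.2), and it was the highest of the 3 in 20 of the 33 tested transporters and the lowest in 9. Of 6 hepatocyte markers tested, 2 were higher and 3 lower in ARD1 libraries. ALB averaged 36.3 ± 3.89 CPM in ARD1 libraries and 315 ± 6.37 CPM in control libraries, and TF 17.3 ± 0.825 and 161 ± 15.3 CPM (SD, n = 3 each). SERPINA1 and APOB were higher, at 2.17 and 7.73 CPM in ARD1 libraries against 0.535 and 6.17 CPM in control libraries, FGB was lower, and AHSG did not pass. The hepatoma marker AFP averaged 0.597 CPM in ARD1 libraries and 3.21 CPM in control libraries, and GPC3 was near 0 in both. TTR and APOA1 were below 0.3 CPM on average in both groups. The name of the cell line comes from the sample labels, and only part of the hepatocyte list goes with it. Of the endothelial list, CDH5, PECAM1 and KDR averaged 33.1, 32.7 and 8.53 CPM in control libraries, and VWF 0.0299 CPM. The epithelial genes KRT8, KRT18 and CDH1 were lower in ARD1 libraries, at 1561, 269 and 10.9 CPM against 2423, 572 and 39.2 CPM. EPCAM, also on the epithelial list, averaged 0.273 CPM in ARD1 libraries and 0.290 CPM in control libraries and was not tested. In bulk libraries, fewer cells of a type and less RNA per cell cannot be told apart. The part of these marker differences in the transporter values was not tested.

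Of the 43 transporters, 33 had enough counts to be tested. In ARD1 libraries 12 were higher and 15 lower than in control libraries by edgeR's quasi-likelihood test at a Benjamini-Hochberg adjusted p under 0.05, and 6 did not pass. Called transporters were 81.8% of those tested, against 64.6% of all 15816 genes tested. Higher calls were 36.4% of transporters against 32.4% of all genes, and lower calls 45.5% against 32.2%. With a log2 fold change of at least 1 required, 3 transporters were higher (9.09%, against 9.71% of all genes), and 10 were lower by that amount (30.3%, against 11.8%). The libraries of the groups did not overlap in 27 transporters (81.8%, against 69.6% of all genes), 12 with every ARD1 library above and 15 with every ARD1 library below. The median log2 fold change over the tested transporters was -0.17, against 0.03 over all genes, and values ran from -5.60 to 1.48. Only 33 of 43 passed the filter on low counts, and a gene that is high in 1 group alone passed through that group.

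The families did not move as 1 block. Over all genes 64.6% were called, 32.4% higher and 32.2% lower, and SLC1, with 60.0% called, was not above that. SLC7 had 7 tested members, with 5 higher and 1 lower, and their median log2 fold change was 0.83. SLC6 also had 7 tested members, and there 1 was higher and 5 lower (median -1.27). SLC38 had 2 higher and 5 lower of 9 (median -0.22), and SLC1 had 1 higher and 2 lower of 5 (median -0.23). With library totals both of these medians turned positive (0.0368 and 0.0323), and the SLC38 median was -0.0303 with GC and length offsets. With no filter on low counts the SLC6 median was 0.0958, over 14 genes. SLC36 was split with 1 higher and 1 lower (median 0.38), and SLC43 had 2 higher and 1 lower of 3 (median 0.23). Among the tested members, the one with the largest absolute change was lower in ARD1 libraries in SLC1, SLC6, SLC38 and SLC43, and higher in SLC7 and SLC36. In SLC7 that member was SLC7A9, which had 12 counts or fewer in every library and whose call did not hold in every alternative.

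**Figure D1:**
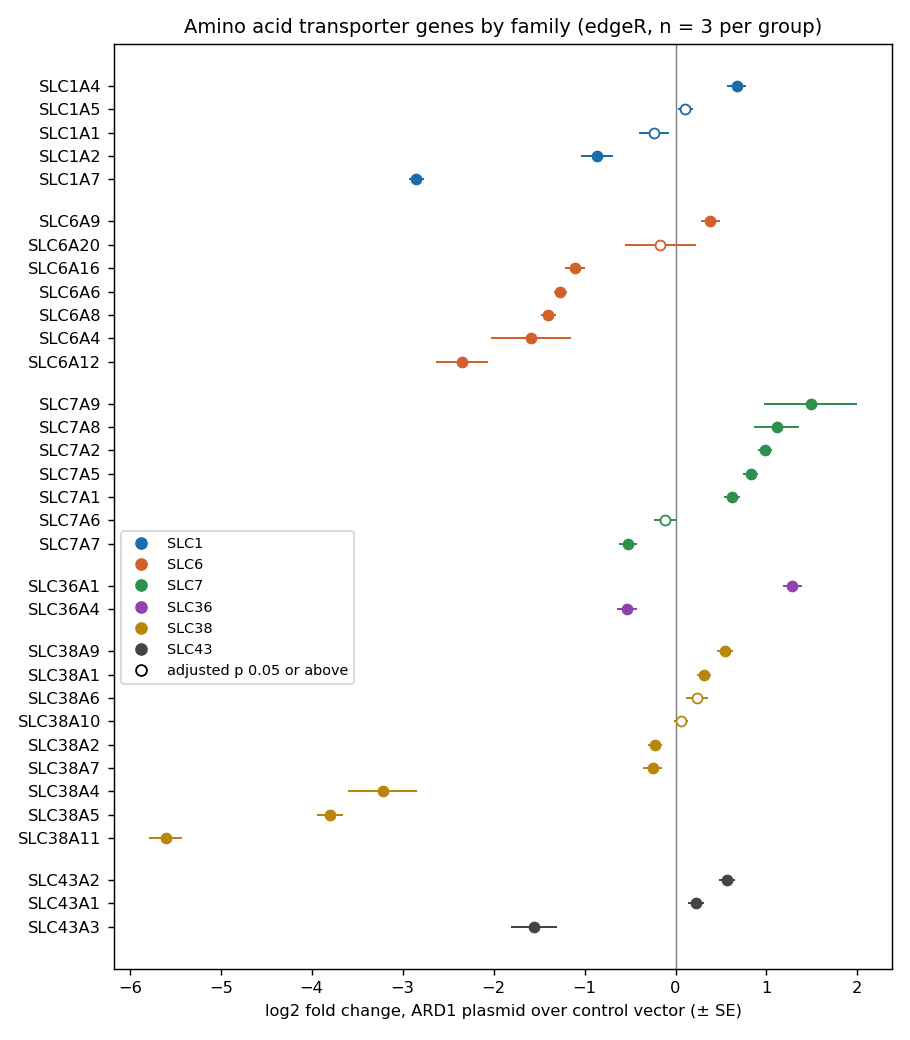
Log2 fold change of the 33 tested transporters (ARD1 plasmid over control vector, horizontal axis, bars ± SE), grouped by family, with open points for those that did not pass the test. SLC7 points lie mostly right of 0, up to 1.48 for SLC7A9, SLC6 points mostly left, and SLC38 holds the lowest value, -5.60 for SLC38A11.

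The scaling of the libraries bears on small changes. TMM factors were above 1 in ARD1 libraries and below 1 in control libraries. With library totals in place of TMM the median of all genes moved by 0.26 on the log2 scale, the share of higher calls among all called genes was 68.6% instead of 50.2%, and 15 transporters were higher and 12 lower. Changes are therefore given relative to the bulk of genes under TMM. The direction of SLC38A2, SLC38A7, SLC1A1, SLC7A6 and SLC6A20 turned with library totals (log2 fold changes of 0.04, 0.02, 0.03, 0.14 and 0.09).

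Levels of different genes can be compared only per length, as CPM per kilobase of exon. On this scale SLC1A5, the glutamine carrier ASCT2, came first in both groups, with 221 ± 12.4 in ARD1 libraries and 205 ± 23.0 in control libraries (SD, n = 3 each). In ARD1 libraries it was followed by SLC38A2 (138), SLC7A5 (101), SLC6A8 (75.1), SLC38A1 (64.3) and SLC6A6 (52.2). In control libraries the order after SLC1A5 was SLC6A8 (198), SLC38A2 (161), SLC6A6 (126), SLC7A5 (56.9), SLC38A1 (51.8) and SLC1A7 (40.6). On all exons the light chain SLC7A5 stood above the creatine carrier SLC6A8 in ARD1 libraries, and SLC6A8 above SLC7A5 in control libraries. In control libraries SLC1A5 and SLC6A8, with 205 ± 23.0 and 198 ± 21.6, differed by less than the spread. With the longest transcript in place of all exons, SLC6A8 stood above SLC7A5 in both groups (109.7 against 106 in ARD1 libraries, and 289 against 59.5 in control libraries), and it also led SLC1A5 (237) in control libraries. The order of these genes therefore depends on the gene model.

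Summed per substrate class on the same scale, carriers of large neutral amino acids reached 127 ± 4.28 CPM per kilobase in ARD1 libraries and 76.2 ± 8.60 in control libraries, a ratio of 1.67. The sum for cationic amino acids was 24.6 in ARD1 libraries and 14.2 in control libraries, a ratio of 1.73. Both sums were higher in every ARD1 library than in any control library. The class of GABA, taurine, betaine and creatine carriers summed to 127.5 ± 1.97 in ARD1 libraries and 324 ± 29.7 in control libraries, a ratio of 0.393. Acidic amino acid carriers summed to 6.77 and 42.1 (ratio 0.161), and system N carriers of glutamine, histidine and asparagine to 0.955 and 13.2 (ratio 0.0721). Between these, the sodium-coupled neutral carriers, the most abundant class, summed to 443 ± 19.1 in ARD1 libraries and 431 ± 4.01 in control libraries, a difference smaller than the spread. The acidic sums were mostly SLC1A7 (5.62 in ARD1 and 40.6 in control libraries), and the system N sums mostly SLC38A5 (0.945 and 13.2). The sum over all transporters, in CPM, was 4678 ± 104 in ARD1 libraries and 5794 ± 219 in control libraries. As a share of unscaled counts it was 0.512% ± 0.0119 in ARD1 libraries and 0.528% ± 0.00312 in control libraries, so the size of the total difference depends on the scaling (ratios of 0.807 and 0.970).

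**Figure D2:**
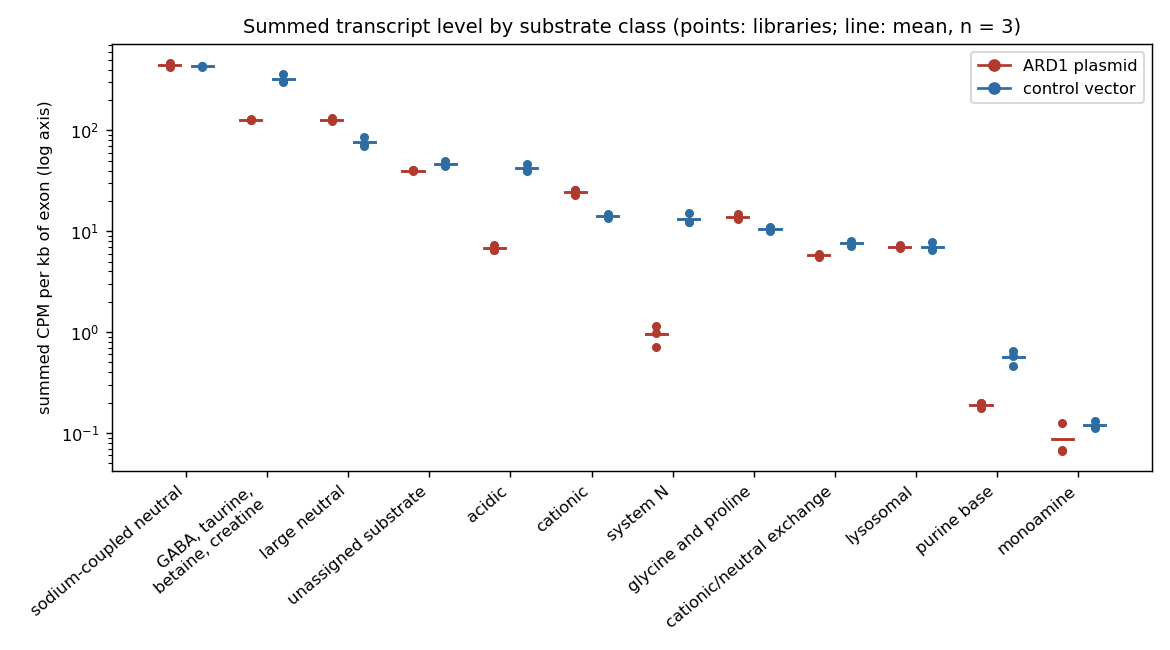
Summed CPM per kilobase of exon for each substrate class (log axis), with 1 point per library and a line at the mean of each group (ARD1 plasmid left, control vector right). The sums for large neutral and cationic carriers lie higher in ARD1 libraries (127 against 76.2, and 24.6 against 14.2), and those for acidic and system N carriers lie lower (6.77 against 42.1, and 0.955 against 13.2). SLC1A7 and SLC38A5 make up most of the acidic and system N sums.

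All 4 carriers of large neutral amino acids, the leucine, phenylalanine and tryptophan group, were called higher in ARD1 libraries, against 32.4% of all genes. The SLC43A1 call did not hold in every alternative. SLC7A5 (LAT1; ENSG00000103257, chr16:87830023-87869488, minus strand, GRCh38) is the main leucine exchanger of proliferating cells. It had 502, 461 and 473 CPM in ARD1 libraries, against 306, 259 and 246 CPM in control libraries. The groups were far apart, and the fold change was 1.77 (log2 0.83, SE 0.0826, adjusted p = 5.92e-07 by edgeR's quasi-likelihood test). Its heavy chain SLC3A2, which is no member of these families, averaged 562 ± 13.5 CPM in ARD1 libraries and 204 ± 16.0 CPM in control libraries (log2 fold change 1.47, SE 0.0732). SLC43A2 (LAT4), a facilitative carrier of leucine and phenylalanine, had 184, 199.8 and 180.0 CPM in ARD1 libraries, against 146, 117 and 118 CPM in control libraries. Every ARD1 library was above every control library (log2 fold change 0.56, SE 0.0884, adjusted p = 5.42e-05).

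SLC43A1 (LAT3), named for the same transport activity, was close to the threshold. It had 31.3, 27.9 and 28.8 CPM in ARD1 libraries, against 26.9, 24.1 and 24.3 CPM in control libraries (log2 fold change 0.23, adjusted p = 0.0403). The groups did not overlap, but ARD1 replicate 2 (27.9) and control replicate 1 (26.9) were close. The call was lost under RLE scaling (adjusted p = 0.0633), DESeq2 (0.0844) and no filter (0.0827), and without control replicate 2 (0.187), control replicate 3 (0.173) or ARD1 replicate 1, 2 or 3 (0.176, 0.0524 and 0.0822). Over all alternatives its adjusted p ran from 2.22e-06 to 0.187. SLC7A8 (LAT2), a light chain that also carries small neutral amino acids, was much rarer. It averaged 2.35 ± 0.328 CPM in ARD1 libraries and 1.08 ± 0.121 CPM in control libraries (SD, n = 3 each; log2 fold change 1.11, SE 0.246, adjusted p = 0.00107). The third SLC43 member, SLC43A3, carries purine nucleobases and went the other way. It had 0.795, 0.900 and 0.886 CPM in ARD1 libraries, against 2.59, 2.09 and 2.92 CPM in control libraries (log2 fold change -1.55, SE 0.254, adjusted p = 8.06e-05). Of its exon bases, 29.9% overlap another gene on the same strand, so part of its counts is uncertain.

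**Figure D3:**
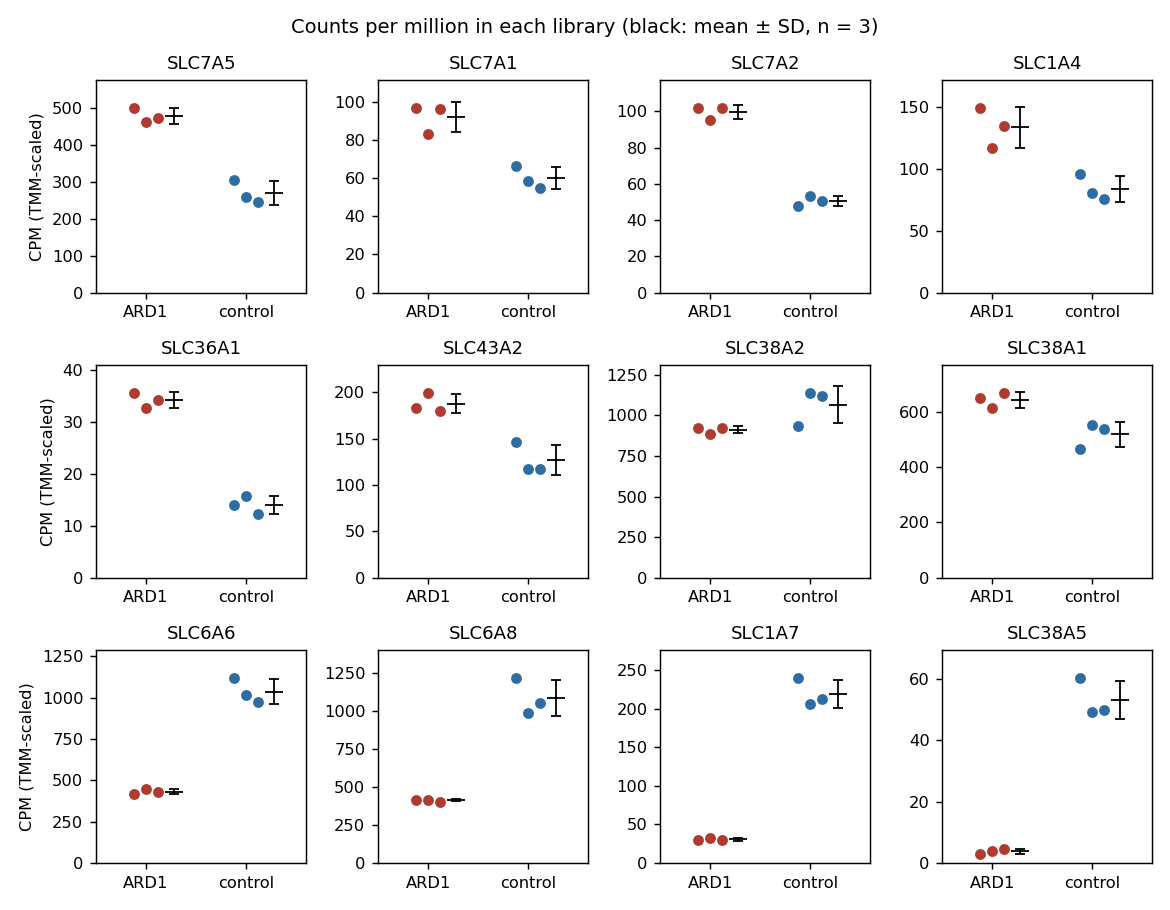
CPM in each library for 12 transporters, with ARD1 libraries left of control libraries and the mean ± SD in black (n = 3 each). SLC7A5, SLC7A1, SLC7A2, SLC1A4, SLC36A1, SLC43A2 and SLC38A1 sit higher in ARD1 libraries (479 against 270.0 CPM for SLC7A5), and SLC38A2, SLC6A6, SLC6A8, SLC1A7 and SLC38A5 lower (30.4 against 219 CPM for SLC1A7).

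Both tested carriers of cationic amino acids (arginine, lysine, ornithine) were called higher in ARD1 libraries, against 32.4% of all genes. SLC7A2 (CAT-2; ENSG00000003989), which is the typical cationic carrier of liver and comes in a low- and a high-affinity isoform, had 102, 95.0 and 102 CPM in ARD1 libraries, against 47.6, 53.0 and 50.5 CPM in control libraries. That is a 1.98-fold difference with no overlap (log2 0.98, SE 0.0749, adjusted p = 3.13e-08), and the counts do not separate the isoforms. SLC7A1 (CAT-1; ENSG00000139514), the general arginine carrier of dividing cells, had 97.0, 83.2 and 96.0 CPM in ARD1 libraries, against 66.4, 58.4 and 55.0 CPM in control libraries. It was 1.54-fold higher with no overlap (log2 0.62, SE 0.0887, adjusted p = 2.29e-05). Per kilobase of exon the pair stood at 12.6 (SLC7A2) and 11.97 (SLC7A1) in ARD1 libraries and at 6.37 and 7.79 in control libraries. SLC7A14, an intracellular relative, was too rare to be tested, with 2, 0 and 0 counts in ARD1 libraries and 6, 9 and 12 counts in control libraries.

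The 3 light chains that exchange cationic for neutral amino acids had 1 member in each outcome. SLC7A7 (y+LAT1), the carrier defective in lysinuric protein intolerance, had 20.7, 21.2 and 20.7 CPM in ARD1 libraries, against 32.7, 31.0 and 26.3 CPM in control libraries. All ARD1 libraries were below all control libraries (log2 fold change -0.52, SE 0.0979, adjusted p = 0.000267), so this SLC3A2 partner moved opposite to SLC7A5. SLC7A6 (y+LAT2) averaged 11.7 ± 1.18 CPM in ARD1 libraries and 12.7 ± 1.56 CPM in control libraries and did not pass (log2 fold change -0.12, adjusted p = 0.412). Of its exon bases 55.6% lie opposite SLC7A6OS and a second gene. SLC7A6OS itself, whose yeast relative helps bring RNA polymerase II into the nucleus, averaged 11.3 ± 0.712 CPM in ARD1 libraries and 6.48 ± 0.680 CPM in control libraries (log2 fold change 0.80, adjusted p = 5.72e-05). Since 64.5% of its exon bases lie opposite SLC7A6 and the strand setting of the counting is not given, the counts of this pair are uncertain. SLC7A9 (b0,+AT), the cystinuria light chain of kidney and gut, had 10, 11 and 12 counts in ARD1 libraries, against 5, 2 and 3 counts in control libraries. Its log2 fold change of 1.48 (SE 0.512, adjusted p = 0.0194) had the widest error of the SLC7 calls. The call was lost under DESeq2 (adjusted p = 0.0809) and no filter (0.0676), and without control replicate 2 (0.0904), control replicate 3 (0.0725) or ARD1 replicate 3 (0.0672), within a range of 0.00637 to 0.0904. Its heavy chain SLC3A1 was near 0, at 0.0403 CPM in ARD1 libraries and 0.0466 CPM in control libraries.

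Several carriers have been reported as targets of ATF4. That list has 7 genes, of which SLC7A3 was not listed in the table. Of the 6 tested, SLC7A5, SLC1A4, SLC7A1 and SLC6A9 were higher in ARD1 libraries, SLC38A2 was lower, and SLC1A5 did not pass, while 32.4% of all genes were higher and 32.2% lower. Their median log2 fold change was 0.50, against 0.03 over all genes. ATF4 mRNA itself averaged 432 ± 14.4 CPM in ARD1 libraries and 397 ± 5.09 CPM in control libraries and did not pass (log2 fold change 0.12, adjusted p = 0.109). ATF4 is controlled largely at translation, which RNA counts do not measure, and the part of ATF4 in these changes was not tested.

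The composite sites that ATF4 shares with CEBP factors often hold the letters TGATGNAA. They were searched on both strands of the RefSeq promoter windows (GRCh38.p14), which span 250 bases before to 50 after each transcript start and exist for 34 of the 43 transporters, in 53 windows. A match was found in 5 of the 53 windows (9.43%), against 1270 of all 35116 windows (3.62%). The genes were SLC1A3, SLC1A4, SLC1A5, SLC38A1 and SLC7A1. Restricted to the 250 bases before the start, only SLC1A3 and SLC1A5 kept a match (3.77% of windows, against 3.14% of all). The 3 matched genes with the largest changes that passed the test are shown, each from 100 bases before to 20 after its RefSeq start, 5′ to 3′ on the gene's strand, with the match in capitals. SLC1A4 lies at chr2:64989299-64989418 (plus strand), SLC7A1 at chr13:29595669-29595788 (minus) and SLC38A1 at chr12:46266497-46266616 (minus).
SLC1A4: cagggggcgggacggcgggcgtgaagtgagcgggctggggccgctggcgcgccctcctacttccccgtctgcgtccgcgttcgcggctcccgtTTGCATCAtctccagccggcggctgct
SLC7A1: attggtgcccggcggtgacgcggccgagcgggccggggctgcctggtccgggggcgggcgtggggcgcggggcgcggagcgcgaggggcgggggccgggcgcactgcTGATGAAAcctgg
SLC38A1: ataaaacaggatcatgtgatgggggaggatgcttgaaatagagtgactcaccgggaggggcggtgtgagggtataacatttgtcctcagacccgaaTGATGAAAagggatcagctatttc
In SLC1A4 the match is on the opposite strand and reads TTGCATCA here, ending on the first transcribed base. In SLC7A1 it lies after the start, at bases 8 to 15 of the transcript, and in rat the amino acid response element of the same gene is known to lie in the first exon. In SLC38A1 it spans the start. These matches are letters in a window, not measured binding, and whether ATF4 acts through any of them was not tested.

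A second motif, the E-box CACGTG, which reads the same on both strands, was in 10 of the 53 windows (18.9%), against 7.26% of all windows. The genes were SLC1A5, SLC1A7, SLC36A1, SLC38A5, SLC38A7, SLC43A1, SLC6A16, SLC7A5, SLC7A7 and SLC7A8. SLC1A5 held both motifs, but in separate windows that belong to different transcript starts. The E-box was carried by transporters that were higher in ARD1 libraries (SLC36A1, SLC7A5, SLC7A8, SLC43A1) and by transporters that were lower (SLC1A7, SLC38A5, SLC6A16, SLC7A7, SLC38A7).

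The sodium-coupled carriers of small neutral amino acids include the most abundant transcripts of these families, and the changes of the 3 most abundant, SLC1A5, SLC38A1 and SLC38A2, were small. SLC1A5 (ENSG00000105281, chr19:46774883-46788594, minus strand) exchanges glutamine for other neutral amino acids. It had 783, 702 and 726 CPM in ARD1 libraries, against 772, 639.8 and 639 CPM in control libraries. Control replicate 1 lay among the ARD1 libraries, and the difference did not pass (log2 fold change 0.11, SE 0.0825, adjusted p = 0.261). Without control replicate 1 it passed (log2 fold change 0.19, adjusted p = 0.000253), as it did with library totals (0.38, adjusted p = 0.000438) and with offsets for GC content and length (0.49, adjusted p = 1.70e-07), within a range of adjusted p from 2.23e-08 to 0.796. Of its exon bases 23.8% lie opposite other genes. SLC1A4 (ASCT1; ENSG00000115902, chr2:64988477-65023865, plus strand), which exchanges alanine, serine and cysteine, had 149, 117 and 134 CPM in ARD1 libraries, against 95.4, 80.0 and 75.4 CPM in control libraries. It was 1.59-fold higher with no overlap (log2 0.67, SE 0.101, adjusted p = 3.63e-05).

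The neighbouring system A genes SLC38A1 and SLC38A2 went in opposite directions by small amounts. SLC38A1 (SNAT1; ENSG00000111371) imports glutamine and other small neutral amino acids. It had 650.2, 613 and 669.8 CPM in ARD1 libraries, against 467, 552 and 537 CPM in control libraries (log2 fold change 0.31, SE 0.0762, adjusted p = 0.00222). The groups did not overlap, and the call was lost with GC and length offsets (log2 fold change 0.09, adjusted p = 0.125), within a range of 2.11e-05 to 0.167. SLC38A2 (SNAT2; ENSG00000134294), the carrier that cells raise during amino acid shortage and osmotic stress, had 924, 888 and 923 CPM in ARD1 libraries, against 936, 1139 and 1120.5 CPM in control libraries. Control replicate 1, at 936 CPM, lay just above the ARD1 libraries, and the test gave a log2 fold change of -0.22 (SE 0.0790, adjusted p = 0.0215). That call did not hold with upper-quartile scaling (adjusted p = 0.0573), library totals (0.715), without control replicate 2 (0.0725) or without ARD1 replicate 1, 2 or 3 (0.0639, 0.0846 and 0.0641). With GC and length offsets the fall was larger (-0.51), and the adjusted p ran from 7.89e-09 to 0.715 over all alternatives. SLC38A4 (SNAT4), the system A carrier typical of liver, was rare, with 4, 5 and 4 counts in ARD1 libraries, against 32, 32 and 44 counts in control libraries. No ARD1 library had more than 5 counts, and the fitted log2 fold change was -3.22 (SE 0.376, adjusted p = 2.97e-06).

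System N, which moves glutamine in either direction with sodium and protons, was represented by SLC38A5 (SNAT5; ENSG00000017483, chrX:48458537-48470256, minus strand). It had 2.89, 3.90 and 4.59 CPM in ARD1 libraries, against 60.4, 49.1 and 50.02 CPM in control libraries. The lowest control library was more than 10 times the highest ARD1 library (log2 fold change -3.80, SE 0.143, adjusted p = 1.56e-11). The liver system N carrier SLC38A3 was nearly undetected, with 0, 2 and 1 counts in ARD1 libraries and 0 counts in each control library. The SLC6 neutral carriers SLC6A14, SLC6A15, SLC6A18 and SLC6A19 stayed at 12 counts or fewer in every library.

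The acidic carriers, which take up glutamate and aspartate, had 2 lower members of 3 tested, while 32.2% of all genes were lower. SLC1A7 (EAAT5; ENSG00000162383, chr1:53087179-53142632, minus strand) is best known as a retinal glutamate carrier with a large chloride conductance. It had 29.1, 32.6 and 29.5 CPM in ARD1 libraries, against 240.0, 206 and 212 CPM in control libraries. The ARD1 level was 0.139 times the control level with no overlap (log2 fold change -2.85, SE 0.0851, adjusted p = 1.56e-12). SLC1A2 (EAAT2), the main glial glutamate carrier and also found in liver, averaged 6.18 ± 1.22 CPM in ARD1 libraries and 11.3 ± 2.53 CPM in control libraries (log2 fold change -0.87, SE 0.176, adjusted p = 0.000547). SLC1A1 (EAAT3), which also carries cysteine, averaged 3.45 ± 0.161 CPM in ARD1 libraries and 4.06 ± 0.389 CPM in control libraries and did not pass (log2 fold change -0.23, adjusted p = 0.229). Per kilobase of exon SLC1A7 remained the leading acidic carrier, with 5.62 in ARD1 libraries and 40.6 in control libraries. SLC1A1 followed with 0.862 and 1.01, and SLC1A2 with 0.271 and 0.495. SLC1A3 (EAAT1) had 0, 3 and 2 counts in ARD1 libraries and 0 counts in each control library.

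Carriers of glycine and proline were divided. SLC36A1 (PAT1; ENSG00000123643, chr5:151437046-151492381, plus strand), a proton-coupled carrier that exports small amino acids from lysosomes and takes part in mTORC1 signalling, had 35.6, 32.5 and 34.2 CPM in ARD1 libraries, against 14.0, 15.7 and 12.3 CPM in control libraries. It was 2.44-fold higher with no overlap (log2 1.29, SE 0.102, adjusted p = 5.03e-08). Its family partner SLC36A4 (PAT4), a high-affinity proline and tryptophan carrier, had 22.1, 23.9 and 22.0 CPM in ARD1 libraries, against 27.1, 35.1 and 36.3 CPM in control libraries. It was lower with no overlap (log2 fold change -0.53, SE 0.109, adjusted p = 0.000590), and the call was lost only with library totals (-0.27, adjusted p = 0.0640) within a range from 7.99e-11. SLC6A9 (GlyT1), the sodium- and chloride-coupled glycine carrier, had 37.2, 31.9 and 31.2 CPM in ARD1 libraries, against 27.5, 26.3 and 23.0 CPM in control libraries. All ARD1 libraries were higher (log2 fold change 0.38, SE 0.100, adjusted p = 0.00359). SLC6A20, the proline carrier of gut and kidney, averaged 0.615 ± 0.156 CPM in ARD1 libraries and 0.685 ± 0.269 CPM in control libraries and did not pass (log2 fold change -0.17, adjusted p = 0.723).

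The lower side of SLC6 rested, in amount, on the taurine and creatine carriers. SLC6A6 (TauT; ENSG00000131389, chr3:14402576-14489349, plus strand) takes up taurine, an osmolyte that liver also conjugates to bile acids. It had 415, 445 and 431 CPM in ARD1 libraries, against 1119.7, 1015 and 975 CPM in control libraries. The ARD1 level was 0.415 times the control level (log2 fold change -1.27, SE 0.0726, adjusted p = 1.42e-09). SLC6A8 (ENSG00000130821, chrX:153688099-153696593, plus strand), which takes up creatine for the phosphocreatine store, had 418, 416 and 405 CPM in ARD1 libraries, against 1221, 990.4 and 1055 CPM in control libraries. The ARD1 level was 0.379 times the control level (log2 fold change -1.40, SE 0.0802, adjusted p = 1.42e-09). For both genes every ARD1 library was far below every control library. SLC6A10P, a near-identical pseudogene copy of SLC6A8, had 0, 1 and 1 counts in ARD1 libraries and 1, 5 and 0 counts in control libraries. Together SLC6A6 and SLC6A8 took 0.0923% of unscaled counts in ARD1 libraries and 0.193% in control libraries, a ratio of 0.477, so they were lower with and without TMM.

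The betaine and GABA carrier SLC6A12 (BGT1), another osmolyte carrier, followed at a low level. It had 13, 10 and 14 counts in ARD1 libraries, against 61, 55 and 49 counts in control libraries (log2 fold change -2.35, SE 0.288, adjusted p = 4.80e-06). SLC6A13 (GAT2), which lies 6050 bases away and carries GABA and taurine in liver, was not tested, with 15, 9 and 15 counts in ARD1 libraries and 5, 6 and 8 counts in control libraries. SLC6A16, a member with no known substrate, averaged 8.25 ± 0.590 CPM in ARD1 libraries and 17.8 ± 1.49 CPM in control libraries (log2 fold change -1.11, SE 0.113, adjusted p = 7.29e-07). The serotonin carrier SLC6A4, which belongs to the family but carries a monoamine, averaged 0.226 CPM in ARD1 libraries and 0.691 CPM in control libraries (log2 fold change -1.59, SE 0.441, adjusted p = 0.00547). The dopamine carrier SLC6A3 had 9, 4 and 5 counts in ARD1 libraries and 0, 2 and 4 counts in control libraries.

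Of the lysosomal SLC38 carriers, SLC38A9, an arginine sensor that signals to mTORC1, had 23.0, 24.0 and 23.1 CPM in ARD1 libraries, against 16.4, 15.8 and 15.9 CPM in control libraries. The 2 groups were each tight and did not overlap (log2 fold change 0.54, SE 0.0903, adjusted p = 9.12e-05). With GC and length offsets the change was 0.16 and did not pass (adjusted p = 0.178), within a range from 1.39e-06. SLC38A7, which exports glutamine and asparagine from lysosomes, had 33.3, 28.6 and 30.5 CPM in ARD1 libraries, against 42.2, 32.6 and 35.0 CPM in control libraries. ARD1 replicate 1, at 33.3 CPM, was above control replicate 2, and the test was near its threshold (log2 fold change -0.25, adjusted p = 0.0462). The call was lost with upper-quartile scaling (adjusted p = 0.0934), library totals (0.881) and GC and length offsets (-0.03, adjusted p = 0.735), and without control replicate 1 (0.0867), ARD1 replicate 2 (0.179) or ARD1 replicate 3 (0.121), within a range of 0.0160 to 0.881.

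The SLC38 members with less settled substrates ranged widely. SLC38A11 (ENSG00000169507, chr2:164896186-164955525, minus strand), a little-studied member, had the lowest fold change of all tested transporters. It had 0.795, 0.487 and 0.604 CPM in ARD1 libraries, against 25.6, 33.5 and 32.8 CPM in control libraries, from 19, 13 and 15 counts against 563, 705 and 730 counts. The ARD1 level was 0.0205 times the control level (log2 fold change -5.60, SE 0.183, adjusted p = 4.08e-12). SLC38A10 averaged 274 ± 3.54 CPM in ARD1 libraries and 263 ± 29.7 CPM in control libraries and did not pass (log2 fold change 0.06, adjusted p = 0.508). It passed as higher without control replicate 1 (0.15, adjusted p = 0.00287), with library totals (0.33, adjusted p = 0.000751) and with GC and length offsets (0.48, adjusted p = 3.80e-08), and its sign turned without control replicate 2 or 3. SLC38A6 averaged 10.5 ± 1.22 CPM in ARD1 libraries and 8.91 ± 0.448 CPM in control libraries (log2 fold change 0.24, adjusted p = 0.103), and it passed only with library totals (0.50, adjusted p = 0.00370).

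The 10 transporters that were not tested included SLC1A3, SLC38A3, SLC6A3, SLC6A13, SLC6A14, SLC6A15, SLC6A18, SLC6A19 and SLC7A14, and none of the 10 was above 15 counts in a library. With no filter, SLC7A14 passed as lower (log2 fold change -3.72, adjusted p = 0.00163) and SLC6A19, the gut and kidney neutral carrier, as higher (2.86, adjusted p = 0.0452). The SLC6A19 call rested on 12, 1 and 6 counts in ARD1 libraries, against 2, 0 and 0 counts in control libraries. The 13 transporters not listed in the table were SLC1A6, SLC36A2, SLC36A3, SLC38A8, SLC6A2, SLC6A5, SLC6A7, SLC6A11, SLC6A17, SLC7A3, SLC7A4, SLC7A10 and SLC7A13. Among the tested genes, SLC38A4 and SLC6A4 in ARD1 libraries and SLC7A9 in control libraries stayed under 10 counts in every library of that group.

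Several of these genes are neighbours in GENCODE 29 (GRCh38), and several neighbours went opposite ways. On chromosome 11 SLC43A3 (-1.55) lies 56953 bases from SLC43A1 (0.23), counted between gene ends, with log2 fold changes in parentheses. On chromosome 14 SLC7A7 (-0.52) lies 295474 bases from SLC7A8 (1.11). On chromosome 12 SLC38A1 (0.31), SLC38A2 (-0.22) and SLC38A4 (-3.22) follow each other with gaps of 88171 and 391893 bases. The calls of SLC43A1, SLC38A1 and SLC38A2 did not hold in every alternative. The SLC6A19, SLC6A18 and SLC6A3 genes on chromosome 5 were all untested.

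Around these carriers, the GCN2-ATF4 list had 7 higher and 1 lower of 10 tested, with a median log2 fold change of 0.77. Over all genes, the shares to read this and the following lists against are 64.6% called, 32.4% higher and 32.2% lower, and the median is 0.03. Among them were DDIT3 (CHOP, log2 fold change 2.49), ATF5 (1.31), CEBPB (0.86) and the asparagine synthetase gene ASNS, at 14.2 ± 0.206 CPM in ARD1 libraries and 3.53 ± 0.568 CPM in control libraries. TRIB3, another ATF4 target, was lower (-0.20, adjusted p = 0.0355). The mTORC1 amino acid sensing list had 9 higher and 10 lower of 28 (median -0.06), shares near those of all genes. The leucine sensor gene SESN2 was higher (1.72), as was FNIP2 (1.27), whereas RRAGB, 1 of the Rag GTPases, and NPRL3 were lower (-1.61 and -0.80). Mitochondrial amino acid carriers had 5 higher and 1 lower of 10 (median 0.16), so their share of calls was not above that of all genes. Among the higher ones were the basic amino acid carrier SLC25A29 (0.51) and the branched-chain carrier SLC25A44 (0.36).

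Other vesicular and lysosomal carriers had 1 higher and 3 lower of 6 (median -0.14), a share of calls near the 64.6% of all genes. The lysosomal arginine and lysine exporter SLC66A1 was higher (0.62), and CTNS, the lysosomal cystine exporter, was lower (-0.48). Of the partner chains, SLC3A2 passed as higher, and the SLC16 partner BSG did not pass (-0.21, adjusted p = 0.0603). Regulators of carriers at the cell surface had 5 higher and 2 lower of 8 (median 0.46), against 32.4% and 32.2% of all genes. TXNIP, an arrestin-like protein that takes carriers off the membrane, stood at 1.94, the kinase genes PDPK1 and SGK2 at 0.74 and -2.07, and ARL6IP5, which binds and restrains SLC1A1, at -0.56. SLC7A11, left out by the rule, averaged 576 ± 37.8 CPM in ARD1 libraries and 174 ± 25.6 CPM in control libraries.

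Marker genes of other cell types also differed. Of the endothelial list, CDH5 averaged 0.0677 CPM in ARD1 libraries and 33.1 CPM in control libraries, whereas KDR (35.3 and 8.53 CPM), PECAM1 (57.7 and 32.7 CPM) and VWF (1.40 and 0.0299 CPM) were higher in ARD1 libraries, so the 4 genes did not move as 1 list. The immune marker PTPRC averaged 0.0529 CPM in ARD1 libraries and 1.74 CPM in control libraries, and LYZ, CD68 and CD3E were below 0.5 CPM in both groups. The fibroblast list had 1 higher (COL1A1) and 1 lower (LUM) of 4 tested, and the neural list 1 higher (SYP) and 1 lower (RBFOX3) of 4. The kidney markers UMOD and SLC22A6 were not listed, and SLC34A1 was near 0. The part of these differences in the transporter values was not tested.

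Across the alternative scalings, filters, tools and left-out libraries, 20 of the 33 tested transporters kept direction and side of the threshold in every alternative that tested them. Of these, 8 were higher (SLC1A4, SLC36A1, SLC43A2, SLC6A9, SLC7A1, SLC7A2, SLC7A5 and SLC7A8) and 12 lower.

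**Figure D4:**
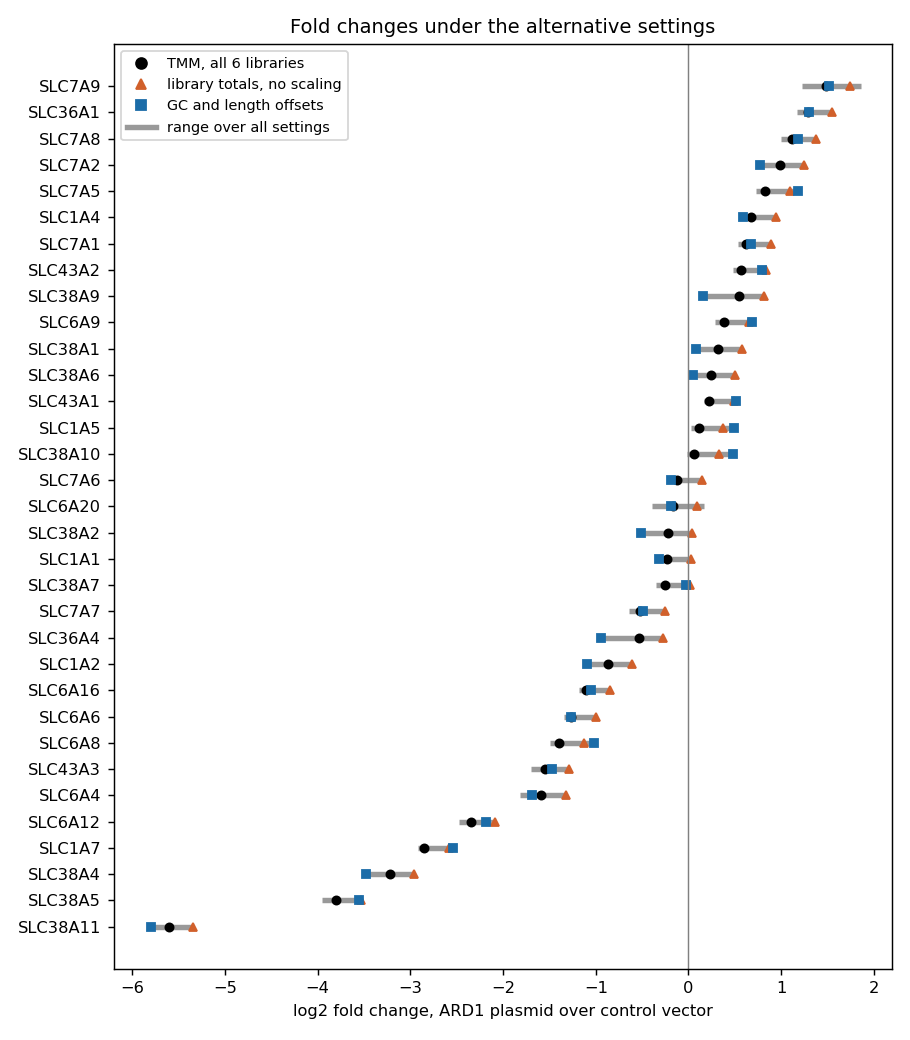
Log2 fold change of each tested transporter (ARD1 plasmid over control vector) with TMM and all 6 libraries (black), with library totals (orange), with GC and length offsets (blue), and the range over all settings (grey bar). Ranges that cross 0 belong to transporters with values near 0, such as SLC38A2 (-0.22), SLC38A7 (-0.25) and SLC38A10 (0.06), while SLC38A11, SLC38A5 and SLC1A7 stay far below 0.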

How the data were processed

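The authors deposited raw counts, as whole numbers for each Ensembl gene and library, with no normalization. GRCh38, STAR 2.7.11b and cutadapt 4.6 are named in the submitters' processing notes. How reads were counted (program, strand, annotation release) is not stated there. Every listed gene has at least 2 counts over the 6 libraries. Symbols came from a names table (19288 of 25071 identifiers had one), and coordinates and exon lengths from GENCODE 29 (23129 found).

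Groups were taken from the treatment labels. Genes were kept by filterByExpr (15816), scaled by TMM and compared with edgeR's quasi-likelihood test over all 6 libraries with Benjamini-Hochberg adjustment over all tested genes (edgeR 4.0.16, R 4.3.3). Standard errors were derived from the F statistic. CPM are TMM-normalised and divided by union exon length for levels per length. Alternatives were RLE, upper-quartile and unscaled libraries, DESeq2 1.42.0, limma-voom 3.58.1, other filters, NAA10 left out, a replicate block, GC and length offsets, each library left out, and, chosen after seeing the data, SLC7A6OS counted as a member. The members and lists were chosen with earlier results of these data known. Values per library are given for called members with at least 20 CPM in the higher group, or with at least 1 CPM there and an absolute log2 change of 1.5 or more, and for the ATF4 list. Per-library values of other members were added after their values were seen. The values of 1 untested member are not reported here.

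On simulated counts for this comparison (15816 genes, 200 changed), 89.6%, 97.0% and 100% of genes changed 1.5-, 2- and 4-fold were recovered, and 5.45% of 202 calls were unchanged genes. The changed genes were drawn only from genes above a minimum mean count. These rates therefore do not cover rare members such as SLC7A9, SLC6A4 and SLC38A4. In the data 10223 genes were called, far more than the 200 changed in the simulation. Without molecular identifiers, floors cover counting error only. Same-numbered libraries did not deviate together (correlations of 0.0162, -0.0297 and 0.0272). The counts thus show no pairing, but they cannot tell whether same-numbered libraries were prepared together, and the labels do not say. Promoters are from RefSeq.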

Additional observations from a re-analysis of the deposited data

How the results depend on the processing

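Of 558 values of single transporters under the alternatives, 512 kept direction and side of the threshold, 29 lost and 9 gained a call, and 8 changed sign; the cause was not tested. Higher transporters numbered 10 to 15 and lower ones 12 to 16, and with a library left out 10 to 14 and 13 to 15. The replicate block gave 12 higher and 15 lower and changed no call. With a log2 fold change of at least 1 required, 3 transporters were higher, and 3406 of all genes passed in either direction. With library totals the family medians were 0.0323 (SLC1), -1.001 (SLC6), 1.09 (SLC7), 0.64 (SLC36), 0.0368 (SLC38) and 0.49 (SLC43), and with no filter -0.0763 (SLC1), 0.0958 (SLC6), 0.71 (SLC7) and -0.0949 (SLC38), over more low-count genes. GC and length offsets gave -1.06 (SLC6), 0.18 (SLC36), -0.0303 (SLC38) and 0.51 (SLC43), and with the replicate block -1.05, 0.18, -0.0275 and 0.51. In the 250 bases before the start 2 transporters held TGATGNAA, since the matches of SLC1A4 and SLC38A1 span the start and that of SLC7A1 lies after it. Signs turned with library totals for SLC1A1 (0.0323), SLC38A2 (0.0368), SLC38A7 (0.0175), SLC6A20 (0.0946) and SLC7A6 (0.14). With a library left out, SLC38A10 ran from -0.0192 to 0.15 and SLC6A20 from -0.39 to 0.16. Rare genes (SLC38A4, SLC6A4, SLC6A20, SLC7A9) have wide errors, and the 10 untested transporters could not be compared at this depth.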
